A study of Homo sapiens with 30 samples.

Results

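The smooth muscle contractile genes described here are the actins ACTA2 and ACTG2, the actin-binding proteins TAGLN, CNN1, CNN2 and CALD1, the tropomyosins TPM1 and TPM2, the myosin light chain MYL9 and the myosin light chain kinase MYLK. They were taken as the 10 rows of the table of 33538 genes whose Ensembl identifiers map to these symbols. The rule uses no measured value, but the set was chosen with earlier results of these data known. All 10 passed the filter on low counts, among 16713 genes tested. The study measured polyadenylated RNA in 30 libraries of Ewing sarcoma cell lines. The treatment was 5 nM BMS-986158, which blocks the bromodomains of the BET proteins, readers of acetylated histones that help drive transcription. The vehicle was DMSO. TC32 cells were treated for 3 days, while A673 and CHLA10 cells were treated for 3 days or kept in the inhibitor for 20 days. The labels call the cells of the 20-day treatment persister cells. Each of the 10 groups (TC32 with BMS-986158 or DMSO at 3 days, and A673 and CHLA10 with BMS-986158 or DMSO at 20 days and at 3 days) had 3 libraries. The label of every library gives the genotype EWS::FLI1, the fusion of the EWSR1 and FLI1 genes that drives most Ewing sarcomas, so the DMSO groups carry it too. Whether the 3 libraries of a group came from separate cultures is not stated, so p-values cover only the variation among the libraries, possibly technical alone. A673 and TC32 shared a medium that CHLA10 did not, so in comparisons with CHLA10 the effects of line and medium cannot be told apart. How long the 20-day DMSO groups were kept in vehicle is not given in the sources used here.

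In smooth muscle, myosin light chain kinase, switched on by calcium, phosphorylates the regulatory light chain of myosin, and myosin then pulls on filaments of smooth muscle actin that tropomyosin, calponin, caldesmon and transgelin decorate. Most of these genes are classical targets of serum response factor (SRF), which binds CArG boxes near their starts and is helped by myocardin and the myocardin-related factors MRTFA and MRTFB. Outside muscle the same genes are made in myofibroblasts and in many cultured mesenchymal and tumour cells, where they belong to the stress fibre machinery.

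The genes lie on 9 chromosomes of GRCh38 and are all protein-coding, with positions given here from GENCODE 29. ACTA2 (ENSG00000107796), smooth muscle alpha actin, spans chr10:88935074-88991339 on the minus strand. ACTG2 (ENSG00000163017), the gamma actin of visceral smooth muscle, spans chr2:73892314-73919865 on the plus strand. TAGLN (ENSG00000149591), transgelin or SM22 alpha, spans chr11:117199321-117204782 on the plus strand. CNN1 (ENSG00000130176) and CNN2 (ENSG00000064666), calponins of muscle and of many tissues, span chr19:11538717-11550323 and chr19:1026581-1039068 on the plus strand. CALD1 (ENSG00000122786), caldesmon, spans chr7:134744252-134970728 on the plus strand. TPM1 (ENSG00000140416) and TPM2 (ENSG00000198467), the alpha and beta tropomyosins, span chr15:63042632-63071915 on the plus strand and chr9:35681992-35690121 on the minus strand. MYL9 (ENSG00000101335), the regulatory light chain of smooth muscle myosin, spans chr20:36541484-36551447 on the plus strand. MYLK (ENSG00000065534), the kinase of that light chain, spans chr3:123610049-123884331 on the minus strand.

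Promoter windows of 250 bases before the RefSeq start (GRCh38.p14) were searched on both strands for the CArG box, which is CC, then 6 bases of A or T, then GG, and reads as the same pattern on either strand. RefSeq windows were matched for 8 of the 10 genes, in 13 windows, TAGLN and MYL9 being the others. ACTG2, CNN2 and MYLK held a CArG box, and of all 35116 promoter windows 407 (1.16%) did. ACTA2 and CALD1 held one in which 1 of the 6 central bases was C or G, as 2093 of all windows (5.96%) did. CNN1, TPM1 and TPM2 had no match of either form in these windows. The sequences below, 5′ to 3′ on the gene's strand, show every window that held a match, with the matches in capitals, and, for contrast, that of CNN1. They are ACTA2 at chr10:88952774-88953023 (minus), ACTG2 at chr2:73892758-73893007 (plus), CNN2 at chr19:1026358-1026607 (plus), MYLK at chr3:123620549-123620798 (minus), CALD1 at chr7:134711249-134711498 (plus) and CNN1 at chr19:11538601-11538850 (plus).
ACTA2: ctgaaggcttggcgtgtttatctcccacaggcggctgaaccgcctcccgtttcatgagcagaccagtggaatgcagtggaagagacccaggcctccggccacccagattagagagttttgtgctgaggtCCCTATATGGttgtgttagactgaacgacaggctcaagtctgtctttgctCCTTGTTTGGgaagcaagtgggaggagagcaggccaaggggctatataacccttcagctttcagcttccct
ACTG2: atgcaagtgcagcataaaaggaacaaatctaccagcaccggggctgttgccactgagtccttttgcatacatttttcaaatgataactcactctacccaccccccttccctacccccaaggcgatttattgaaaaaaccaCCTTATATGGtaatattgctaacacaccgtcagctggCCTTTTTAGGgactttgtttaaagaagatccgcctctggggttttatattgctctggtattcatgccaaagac
CNN2: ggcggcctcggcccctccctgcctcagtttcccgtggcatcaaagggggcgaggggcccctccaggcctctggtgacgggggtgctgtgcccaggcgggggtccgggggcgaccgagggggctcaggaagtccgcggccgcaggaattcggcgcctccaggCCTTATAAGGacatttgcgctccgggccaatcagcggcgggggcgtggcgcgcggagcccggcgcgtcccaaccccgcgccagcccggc
MYLK: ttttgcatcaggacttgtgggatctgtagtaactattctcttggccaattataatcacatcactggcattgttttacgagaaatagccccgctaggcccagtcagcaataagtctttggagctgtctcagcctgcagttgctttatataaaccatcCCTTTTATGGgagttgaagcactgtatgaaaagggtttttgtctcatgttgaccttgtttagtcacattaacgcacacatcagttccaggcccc
CALD1: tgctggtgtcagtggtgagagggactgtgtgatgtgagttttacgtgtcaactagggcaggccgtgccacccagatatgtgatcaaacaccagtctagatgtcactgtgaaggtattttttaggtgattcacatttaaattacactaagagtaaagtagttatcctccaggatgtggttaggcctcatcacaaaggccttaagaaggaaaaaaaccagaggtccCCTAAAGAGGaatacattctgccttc
CNN1: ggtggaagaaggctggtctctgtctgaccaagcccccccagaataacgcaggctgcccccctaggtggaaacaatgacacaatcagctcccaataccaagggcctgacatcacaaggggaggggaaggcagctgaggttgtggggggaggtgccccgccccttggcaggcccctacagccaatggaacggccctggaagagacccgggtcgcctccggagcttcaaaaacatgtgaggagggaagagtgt
The 2 ACTG2 boxes began 110 and 73 bases before the start, the CNN2 box 89 bases and the MYLK box 94 bases before it. The ACTA2 matches, each with 1 base off the strict form, began 121 and 71 bases before the downstream of its 2 RefSeq starts, and the CALD1 match, also with 1 base off, 26 bases before the most upstream of its 4 starts. The MYLK window belongs to a start near the 3′ end of the gene, in the region that gives the short product telokin.

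Libraries held 16083677 to 48949739 counts. Values are CPM, counts divided by the scaled library size and brought to a common total of 1000000. Changes are log2 ratios of BMS-986158 over DMSO, with their standard errors, and a change was called where the adjusted p of edgeR's quasi-likelihood test was under 0.05 over all genes tested. The 4 libraries farthest from the other 2 of their group were each replicate 3. They were those of A673 BMS-986158 at 20 days, A673 DMSO at 3 days, and both CHLA10 groups at 20 days. These 4 are named below where a result rests on them. They were taken by rank, and others lay close behind. The SD of the log2 difference from the group was 0.573 for the CHLA10 DMSO library. It was 0.569 for TC32 DMSO replicate 1 and for A673 BMS-986158 replicate 2 at 20 days. In bulk RNA, fewer cells making a transcript and less transcript per cell cannot be told apart. The counting's use of strand is not given in the sources used here. ACTA2 shares 380 exon bases with FAS and TAGLN shares 446 with PCSK7, both on the opposite strand, and the counts of FAS and PCSK7 summed to 61.9% and 102% of those of ACTA2 and TAGLN, so reads from the shared stretches may sit in either row. The antisense genes of TPM1 and MYLK held at most 1.24% of the counts of their partners.

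The lines differed widely in these genes before any inhibitor. In DMSO at 3 days and per kb of the longest coding transcript, TPM2 led in TC32, with 441 ± 47.3 CPM per kb (SD, n = 3), and in CHLA10, with 208 ± 4.2 CPM per kb. CNN2 led in A673, with 138 ± 10.5 CPM per kb. ACTA2 stood at 105 ± 4.77 in TC32, 16.6 ± 3.58 in A673 and 70.3 ± 2.29 CPM per kb in CHLA10. TAGLN stood at 74.2 ± 3.11 in TC32, 3.62 ± 0.448 in A673 and 36.4 ± 1.17 CPM per kb in CHLA10. In TC32 the order of levels was TPM2, CNN2, ACTA2, CALD1, TAGLN, ACTG2, TPM1, MYL9, CNN1 and MYLK, where CALD1 (78.5 ± 5.23) and TAGLN lay within their spread. In CHLA10 the order was TPM2, CNN2, ACTA2, ACTG2, CALD1, TPM1, TAGLN, MYLK and CNN1, where ACTG2 (46.5 ± 3.52) with CALD1 (46.1 ± 1.66) and TPM1 (38 ± 0.925) with TAGLN lay within their spread. In A673 it was CNN2, CALD1, TPM2, ACTA2, TPM1, TAGLN, MYLK, CNN1 and ACTG2, where TPM2 spread widely (38.1 ± 21.1) across its neighbours. Dividing by all annotated exon bases instead moved TAGLN above CALD1 in TC32 and CHLA10, and MYL9 above TPM1 in TC32.

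**Figure D1:**
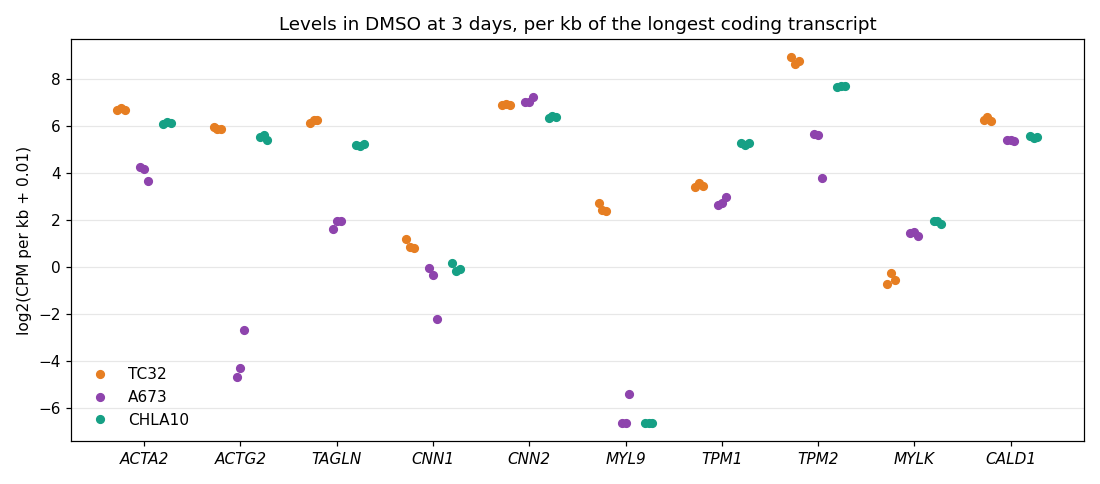
Levels of the 10 genes in DMSO at 3 days, as log2 of CPM per kb of the longest coding transcript plus 0.01; each point is 1 library and colours mark TC32, A673 and CHLA10. ACTA2, ACTG2 and TAGLN are lowest in the 3 A673 libraries, and MYL9 is above 0 in all 3 TC32 libraries and in 1 other library.

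Tests between the DMSO groups at 3 days put these differences beside a background in which most genes differed. TC32 and A673 differed in 8 of the 10 genes (66.6% of all genes tested), TC32 and CHLA10 in 7 (61.1%), and A673 and CHLA10 in 7 (61.2%). The shares of contractile genes called were therefore near the shares of all genes. TAGLN was 20.4-fold higher in TC32 than in A673 (log2 4.35 ± 0.49, edgeR adjusted p = 6.95e-08), and ACTA2 6.35-fold higher. A673 was below CHLA10 in ACTA2 (log2 -2.09 ± 0.39), TAGLN (-3.32 ± 0.47), TPM1 (-2.45 ± 0.4) and TPM2 (-2.46 ± 0.34). MYLK ran the other way, being 3.83-fold lower in TC32 than in A673 and 5.39-fold lower in TC32 than in CHLA10. TPM1 was also lower in TC32 than in CHLA10 (-1.77 ± 0.39), and CNN2 was higher in A673 than in CHLA10 (0.71 ± 0.16). Higher TAGLN in TC32 than in CHLA10 (1.03 ± 0.42, edgeR adjusted p = 0.038) and lower MYLK in A673 than in CHLA10 (-0.49 ± 0.2, adjusted p = 0.0357) depended on single libraries. The TAGLN call was lost in all 6 fits that left out 1 library (adjusted p up to 0.0917), with library size only (0.0526), with no filter (0.078) and with those lines only (0.0631). The MYLK call was lost in 5 of 6 such fits (up to 0.0905) and with RLE (0.0513) or upper-quartile factors (0.051). Higher CNN1 in TC32 than in A673 (1.61 ± 0.61) was lost without A673 DMSO replicate 3 (1.16, adjusted p = 0.106) or TC32 DMSO replicate 1 (1.48, adjusted p = 0.0599).

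MYL9, which encodes the light chain that MYLK phosphorylates, was a TC32 transcript in these libraries. It had 337, 306 and 222 counts in the TC32 DMSO libraries and 1 count in all A673 libraries together, and none in any CHLA10 library. Against a floor of 3 counts over the CHLA10 group, its level was at least 309-fold higher in TC32 than in CHLA10 in DMSO at 3 days. ACTG2 was scarce in A673. In DMSO at 3 days it had 1807 to 2494 counts in TC32, 1 to 8 counts in A673 and 1632 to 2092 counts in CHLA10. Because of these counts, no change is given for MYL9 in A673 or CHLA10, nor for ACTG2 in A673. A673 DMSO replicate 1 at 20 days, with 29 counts of ACTG2, stood above the other libraries of that line, which held at most 8.

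Under BMS-986158 most of these genes fell in TC32 and CHLA10 and fewer did in A673. In TC32 at 3 days all 10 were lower, where 22.8% of all genes tested were called lower. All 10 also had groups that did not overlap there, as did 28% of all genes tested in that direction, and 22.3% of all genes tested were called higher there. In CHLA10 8 were lower at 20 days (background 17.2%) and 7 at 3 days (background 15.7%), and none was higher at either time (background 16.5% and 14%). In A673 at 20 days 2 were lower (TPM2 and MYLK, background 19.9%) and 2 higher (TPM1 and CALD1, background 19.7%). In A673 at 3 days 3 were lower (CNN1, TPM2 and MYLK, background 18.4%) and none higher (background 15.3%). The counts of 0 higher genes, by edgeR, were also 0 at an unadjusted p under 0.05 and with DESeq2. MYL9 had no count in CHLA10 and 1 count in A673. No call was possible for it within those lines, although it is counted among the 10 here and below. Over the genes with more than 3 counts summed over either group, the median log2 change was -2.77 in TC32 (10 genes), 0.19 in A673 at 20 days, -0.63 in A673 at 3 days, -1.44 in CHLA10 at 20 days and -1.63 in CHLA10 at 3 days (9 genes each). The A673 medians include ACTG2, for which no change is given there because of its few counts. The median over all genes tested lay between -0.02 and 0 in these comparisons. MYLK and TPM2 were lower in all 5 comparisons.

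**Figure D2:**
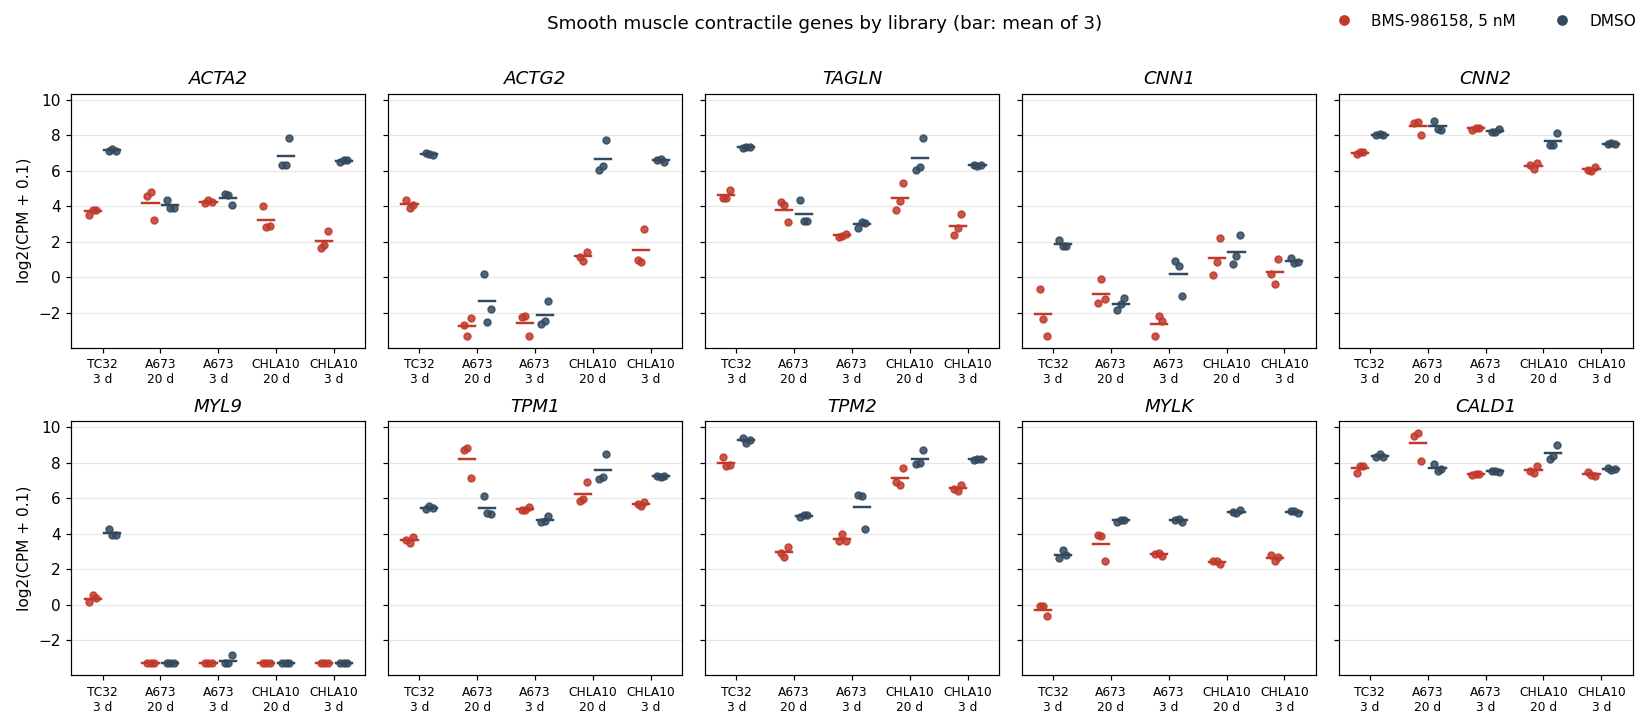
Level of each gene in every library, as log2 of CPM plus 0.1, for the 5 combinations of line and day; red points are 5 nM BMS-986158, dark points DMSO, and bars the mean of 3. In TC32 every red point lies below every dark point for all 10 genes, and in A673 at 20 days the red points of TPM1 and CALD1 lie above the dark ones.

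ACTA2, the actin that marks smooth muscle and myofibroblasts, fell strongly in TC32 and CHLA10 and was not called in A673. In TC32 it had 11.5, 13.7 and 13.8 CPM with BMS-986158 and 137, 149 and 140 CPM with DMSO, a 10.9-fold decrease (log2 -3.45 ± 0.41, edgeR adjusted p = 7.89e-07). In CHLA10 at 20 days it had 15.8, 6.91 and 7.22 CPM with BMS-986158, against 79.9, 81.1 and 235 CPM with DMSO. In CHLA10 at 3 days it had 3.06, 3.39 and 5.98 CPM with BMS-986158, against 91.5, 97.4 and 95.8 CPM with DMSO, a 22.9-fold decrease (-4.52 ± 0.45, edgeR adjusted p = 1.18e-07). The groups did not overlap in any of these 3 comparisons, and at 20 days DMSO replicate 3 stood far above the other 2. The change at 20 days was -3.72 ± 0.42 (13.2-fold lower) and -3.01 without that library. In A673 the BMS-986158 libraries held 23.4, 27.8 and 9.42 CPM at 20 days and 17.8, 20.4 and 19 CPM at 3 days, against DMSO values of 20.7, 15 and 14.8 CPM at 20 days and 25.9, 24.4 and 16.9 CPM at 3 days. The A673 groups overlapped at both times (log2 0.26 ± 0.39 at 20 days and -0.22 ± 0.38 at 3 days, edgeR adjusted p = 0.643 and 0.692).

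ACTG2, the actin of visceral smooth muscle, showed the lowest log2 values of the 10 genes in CHLA10. In CHLA10 at 20 days it had 2.14, 1.81 and 2.61 CPM with BMS-986158, against 66, 77.9 and 214 CPM with DMSO. That was a 54.5-fold decrease (log2 -5.77 ± 0.52, edgeR adjusted p = 1.97e-08), or -5.04 without DMSO replicate 3. In CHLA10 at 3 days it had 1.83, 1.74 and 6.5 CPM with BMS-986158 and 95.7, 103 and 88.8 CPM with DMSO, a 28.6-fold decrease (-4.84 ± 0.49, and -5.74 without BMS-986158 replicate 3, the highest of its group). TC32 cells had 20.4, 15.1 and 16.5 CPM under BMS-986158 and 130, 123 and 120 CPM under DMSO, a 7.17-fold decrease (-2.84 ± 0.43, edgeR adjusted p = 1.56e-05). No BMS-986158 library of TC32 or CHLA10 reached the DMSO libraries of its line.

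TAGLN, an actin-bundling protein of the calponin family and an early marker of smooth muscle differentiation, was lower in the same 3 comparisons as ACTA2. In TC32 it had 21.7, 22 and 30.6 CPM with BMS-986158, against 153, 165 and 164 CPM with DMSO, a 6.49-fold decrease (log2 -2.7 ± 0.45, edgeR adjusted p = 4.3e-05). In CHLA10 at 20 days it had 14, 19.6 and 39.7 CPM with BMS-986158 and 65.7, 74.9 and 228 CPM with DMSO (-2.33 ± 0.44, and -1.52 without DMSO replicate 3). Replicate 3 was the highest library of both treatments there. In CHLA10 at 3 days TAGLN had 5.17, 6.73 and 11.6 CPM with BMS-986158 and 79.2, 76 and 81 CPM with DMSO, a 10.1-fold decrease (-3.33 ± 0.47, edgeR adjusted p = 1.38e-05). In A673 it was low in every library, with 18.8, 16.4 and 8.41 CPM under BMS-986158 and 20.3, 8.73 and 8.86 CPM under DMSO at 20 days. At 3 days A673 had 4.77, 4.98 and 5.41 CPM under BMS-986158, all below the 6.71, 8.45 and 8.34 CPM under DMSO, and the change was not called (-0.63 ± 0.48, edgeR adjusted p = 0.337). PCSK7, which overlaps TAGLN, held at least 13 CPM in every library. At 3 days that is above TAGLN in every A673 library and in every treated CHLA10 library. The part of shared reads in these low values was not tested.

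CNN1 and CNN2, calponins that bind actin and restrain myosin's ATPase, differed in level and in pattern. CNN1 was scarce, at 0 to 110 counts per library. In TC32 it had 11, 2 and 0 counts with BMS-986158 and 76, 67 and 49 counts with DMSO (log2 -4.02 ± 0.75, edgeR adjusted p = 8.28e-05). In A673 at 3 days it had 0, 3 and 4 counts with BMS-986158 and 30, 35 and 10 counts with DMSO (-3.87 ± 0.85, adjusted p = 0.000903). Both falls rest on few counts, and the TC32 value was -5.99 without BMS-986158 replicate 1. In CHLA10 the CNN1 groups overlapped at both times, at 0.972 to 4.48 CPM with BMS-986158 and 1.59 to 5.06 CPM with DMSO at 20 days, and 0.668 to 1.95 CPM and 1.63 to 2.05 CPM at 3 days. CNN2 was abundant, and its values were tight at 3 days. At 20 days CNN2 spread more in both A673 groups and in CHLA10 DMSO, where replicate 3 was the highest at 281 CPM. In TC32 it had 123, 133 and 134 CPM with BMS-986158, against 259, 271 and 261 CPM with DMSO, a 2.03-fold decrease (-1.02 ± 0.16, edgeR adjusted p = 1.52e-05). In CHLA10 it fell 2.71-fold at 20 days (-1.44 ± 0.17) and 2.68-fold at 3 days (-1.42 ± 0.17), to 63.6 to 85.9 CPM under BMS-986158, against 174 to 281 CPM under DMSO over both times. In A673 CNN2 lay at 262 to 439 CPM with BMS-986158 and 315 to 456 CPM with DMSO at 20 days, and at 321 to 346 CPM and 288 to 329 CPM at 3 days, and neither comparison was called (0.02 ± 0.16 and 0.16 ± 0.16).

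CALD1, caldesmon, which holds tropomyosin-coated actin away from myosin, moved in opposite directions in A673 and CHLA10 at 20 days. In A673 at 20 days it had 733, 831 and 276 CPM with BMS-986158, against 240, 184 and 200 CPM with DMSO, a 2.95-fold increase (log2 1.56 ± 0.25, edgeR adjusted p = 2.07e-05). BMS-986158 replicate 3 was well below the other 2 of its group and still above every DMSO library. In CHLA10 at 20 days CALD1 had 186, 173 and 222 CPM with BMS-986158 and 301, 334 and 518 CPM with DMSO, a 1.98-fold decrease (-0.99 ± 0.24, edgeR adjusted p = 0.00284). CALD1 in those treated libraries lay near its 190 to 204 CPM in CHLA10 DMSO at 3 days, and its DMSO level was higher at 20 days. In TC32 it had 172, 227 and 222 CPM with BMS-986158 and 324, 362 and 322 CPM with DMSO (-0.7 ± 0.24, adjusted p = 0.0219). That call was lost with no filter on low counts (adjusted p = 0.0646) and without BMS-986158 replicate 1 (0.0982) or DMSO replicate 2 (0.0657). At 3 days CALD1 was not called in A673 (157 to 167 CPM with BMS-986158, 177 to 184 CPM with DMSO) or in CHLA10 (153 to 177 CPM, against 190 to 204 CPM), although the groups did not overlap.

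TPM1, the alpha tropomyosin, moved in opposite directions too. In A673 at 20 days it had 421, 451 and 140 CPM with BMS-986158, against 69.2, 35.4 and 34.9 CPM with DMSO, a 7.24-fold increase (log2 2.86 ± 0.4, edgeR adjusted p = 6.95e-06). All 3 treated libraries were above all 3 DMSO libraries, and replicate 3 was again the lowest of the treated ones. In A673 at 3 days the values were 40.2, 40.8 and 44.8 CPM with BMS-986158 and 24.7, 26.1 and 31.6 CPM with DMSO, apart but not called (0.61 ± 0.39, edgeR adjusted p = 0.239). In TC32 TPM1 had 12.2, 10.9 and 13.9 CPM with BMS-986158 and 41.7, 47.9 and 42.8 CPM with DMSO, a 3.59-fold decrease (-1.84 ± 0.41, adjusted p = 0.000923). In CHLA10 it had 57.5, 62.4 and 120 CPM with BMS-986158 and 133, 145 and 365 CPM with DMSO at 20 days (-1.42 ± 0.38, adjusted p = 0.00623), which was not called without DMSO replicate 3 (-0.79, adjusted p = 0.0912). In CHLA10 at 3 days it had 50.8, 47.6 and 54.2 CPM with BMS-986158, against 153, 146 and 152 CPM with DMSO, a 2.96-fold decrease (-1.57 ± 0.39, adjusted p = 0.00364).

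TPM2, the beta tropomyosin, was lower in every comparison. In TC32 it had 320, 221 and 234 CPM with BMS-986158, against 681, 549 and 611 CPM with DMSO, a 2.37-fold decrease (log2 -1.25 ± 0.33, edgeR adjusted p = 0.00336). In A673 at 20 days it had 7.47, 6.35 and 9.26 CPM with BMS-986158 and 31.1, 33.1 and 33 CPM with DMSO (-2.07 ± 0.37, adjusted p = 0.000106). In A673 the tropomyosins thus changed in opposite directions at that time. In A673 at 3 days TPM2 had 11.7, 15.6 and 11.7 CPM with BMS-986158 and 71, 69.1 and 19.1 CPM with DMSO, with DMSO replicate 3 far below the other 2 (-2.02 ± 0.35, adjusted p = 0.000123). In CHLA10 TPM2 fell 2.11-fold at 20 days and 3.1-fold at 3 days. The call at 20 days (-1.08 ± 0.32, adjusted p = 0.0132) was lost without BMS-986158 replicate 1 (0.058), BMS-986158 replicate 2 (0.0717) or DMSO replicate 3 (0.0941).

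MYL9 and MYLK encode the light chain and the kinase that acts on it. MYL9 had 20, 28 and 22 counts in TC32 with BMS-986158, against 337, 306 and 222 counts with DMSO, a 13.7-fold decrease (log2 -3.78 ± 0.37, edgeR adjusted p = 1.77e-06). MYLK in TC32 had 0.84, 0.835 and 0.533 CPM with BMS-986158 and 6.03, 8.24 and 6.72 CPM with DMSO, a 9.42-fold decrease (-3.23 ± 0.28, adjusted p = 1.36e-09). Both genes of the pair were therefore lower in the 1 line that had both. In A673 MYLK had 14.9, 14.4 and 5.41 CPM with BMS-986158 and 25.5, 27.1 and 27.6 CPM with DMSO at 20 days, a 2.31-fold decrease (-1.21 ± 0.21, adjusted p = 3.73e-05). At 3 days A673 had 7.22, 7.37 and 6.52 CPM with BMS-986158, against 27.5, 28.1 and 25 CPM with DMSO, a 3.82-fold decrease (-1.93 ± 0.21). In CHLA10 MYLK had 5.41, 5.47 and 4.69 CPM with BMS-986158 and 36.9, 36.3 and 40 CPM with DMSO at 20 days, a 7.26-fold decrease (-2.86 ± 0.22, adjusted p = 1.58e-10). At 3 days CHLA10 had 6.91, 5.35 and 6.42 CPM with BMS-986158, against 38.8, 39 and 35.7 CPM with DMSO, a 6.07-fold decrease (-2.6 ± 0.22). No treated library overlapped its DMSO group for MYLK in any of the 5 comparisons.

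**Figure D3:**
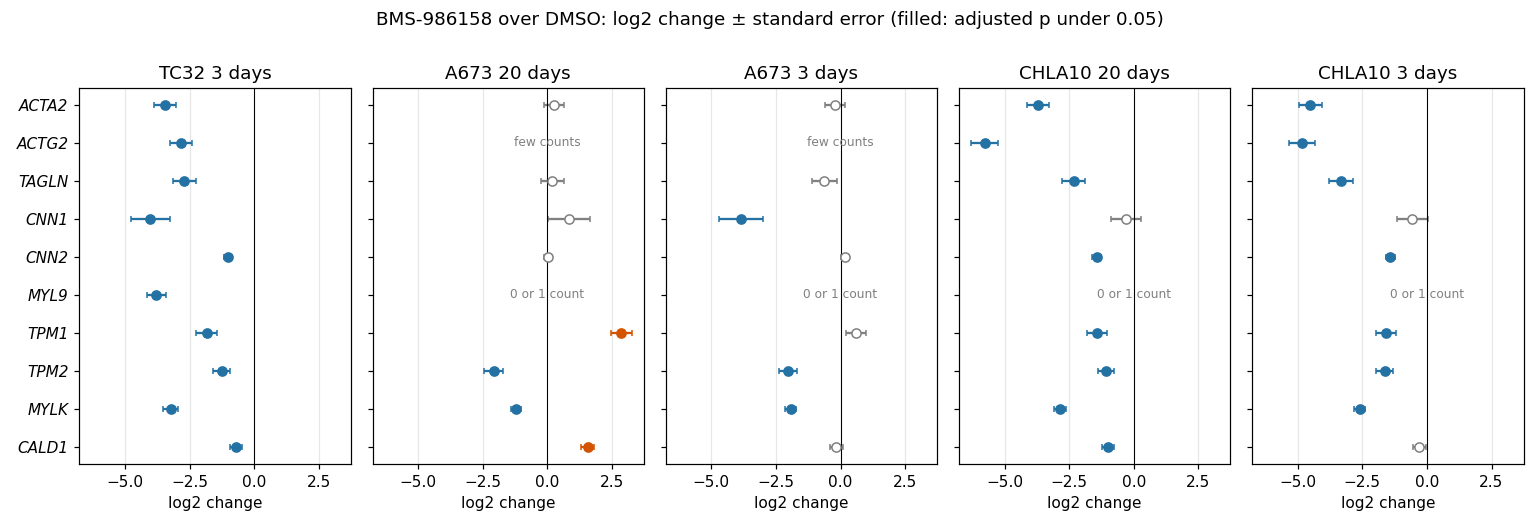
Log2 change of BMS-986158 over DMSO with its standard error for each gene in the 5 comparisons; filled points were called (blue lower, orange higher) and open points were not, and genes with too few counts carry words in place of a point. MYLK and TPM2 lie left of 0 and filled in every panel, and TPM1 (2.86) and CALD1 (1.56) are the filled points right of 0, both in A673 at 20 days.

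The response was then compared between times and lines by testing the difference of 2 log2 changes. These comparisons share libraries, since each line's response at 3 days enters several of them. In A673, 3 of the 10 genes responded differently at 20 than at 3 days (7.26% of all genes tested): CNN1 by 4.72 ± 1.2, TPM1 by 2.25 ± 0.54 and CALD1 by 1.72 ± 0.34 (edgeR adjusted p = 0.0151, 0.0139 and 0.00321). In DMSO alone CNN1 had 0.179, 0.257 and 0.339 CPM at 20 days, against 1.77, 1.46 and 0.377 CPM at 3 days, a difference that was itself not called. The CNN1 and TPM1 differences were not called without A673 BMS-986158 replicate 2 at 20 days (adjusted p = 0.0774 and 0.0509), nor CNN1 with limma-voom (0.052). MYLK differed by 0.72 ± 0.29 (adjusted p = 0.137), and without A673 BMS-986158 replicate 3 at 20 days it was called (1.07, adjusted p = 0.000238).

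In CHLA10 none of the 10 responses was called different at 20 than at 3 days by edgeR, where 6.32% of all genes tested were. MYL9, without a count in any CHLA10 library, could not have been called. DESeq2 called 0 as well, and 0 had an unadjusted p under 0.05, with CALD1 nearest (-0.7 ± 0.34, unadjusted p = 0.0513). Same-numbered CHLA10 libraries at 20 days deviated from their group means with correlations of 0.2, 0.15 and 0.36. With the replicate number as a block in every line and day, edgeR called TAGLN (1.16, adjusted p = 0.0168, against 1.01 ± 0.61, adjusted p = 0.356, without the block). Without CHLA10 DMSO replicate 3 at 20 days, ACTA2 (1.51, adjusted p = 0.0412) and TAGLN (1.81, adjusted p = 0.0294) were called, both as smaller falls at 20 days.

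Between A673 and CHLA10 the responses of the actin, transgelin, calponin 2 and alpha tropomyosin genes differed at both times. At 20 days 6 of the 10 differed (21.9% of all genes tested), all as a higher log2 change in A673: ACTA2 by 3.98 ± 0.56, TAGLN by 2.52 ± 0.62, CNN2 by 1.46 ± 0.23, TPM1 by 4.27 ± 0.55, MYLK by 1.65 ± 0.3 and CALD1 by 2.55 ± 0.35. Without CHLA10 DMSO replicate 3 the differences were 3.27 for ACTA2, 1.72 for TAGLN and 3.65 for TPM1, and all were still called. At 3 days 5 differed (10.5% of all genes tested): ACTA2 by 4.29 ± 0.58, TAGLN by 2.7 ± 0.66, CNN2 by 1.58 ± 0.23 and TPM1 by 2.17 ± 0.54 were higher in A673, and CNN1 by -3.31 ± 1.1 was lower. The CNN1 difference (edgeR adjusted p = 0.0451) was lost with limma-voom (0.106), with no filter (0.0637) and in 10 of the 12 fits that left out 1 library.

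TC32 against A673 gave 5 differences at 3 days (24.2% of all genes tested), all as a lower log2 change in TC32. They were ACTA2 by -3.22 ± 0.55, TAGLN by -2.07 ± 0.65, CNN2 by -1.18 ± 0.23, TPM1 by -2.45 ± 0.56 and MYLK by -1.3 ± 0.36. TAGLN (edgeR adjusted p = 0.0231) was lost without A673 BMS-986158 replicate 3 (0.0539), A673 DMSO replicate 1 (0.0507) or TC32 BMS-986158 replicate 2 (0.0558), and MYLK was lost with limma-voom (0.0633). TPM2 was called without A673 DMSO replicate 3 (1.18, adjusted p = 0.0123). TC32 against CHLA10 gave 2 (13.8% of all genes tested): ACTG2 by 2 ± 0.61, a smaller fall in TC32, and CNN1 by -3.45 ± 0.97. Both depended on single libraries: ACTG2 (edgeR adjusted p = 0.0339) was called in 1 of 12 such fits, and CNN1 (0.0185) in 9 of 12. For ACTA2 the difference between TC32 and CHLA10 was 1.07 ± 0.57 and for TAGLN 0.64 ± 0.61, neither of them called, which does not show that the responses are alike.

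**Figure D4:**
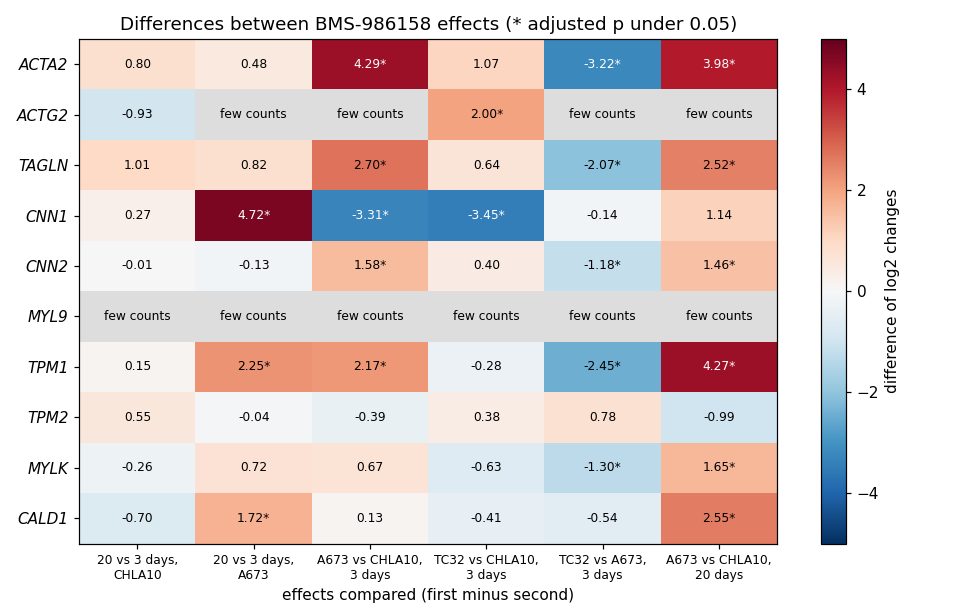
Difference between BMS-986158 responses (first minus second, in log2) for each gene in 6 comparisons of times or lines; stars mark adjusted p under 0.05 and grey cells genes with too few counts. In the column of A673 against CHLA10 at 20 days the 6 starred values run between 1.46 and 4.27.

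The DMSO groups at 20 and 3 days were also compared. In A673 none of the 10 genes was called by edgeR (6.1% of all genes tested), and 2 had an unadjusted p under 0.05, CNN1 (log2 -2.19 ± 0.73, adjusted p = 0.0677) and TPM2 (-0.71 ± 0.33, adjusted p = 0.199). MYL9, with 1 count in these A673 libraries together, could not be judged. DESeq2 called CNN1 there (adjusted p = 0.0229). Without A673 DMSO replicate 3 at 3 days both CNN1 (-2.63, adjusted p = 0.0097) and TPM2 (-1.11, adjusted p = 0.00245) were called. In CHLA10 CALD1 was higher at 20 days (15.1% of all genes tested), with 301, 334 and 518 CPM at 20 days and 204, 190 and 198 CPM at 3 days (0.96 ± 0.24, adjusted p = 0.00943). That call was lost without DMSO replicate 3 at 20 days (0.69, adjusted p = 0.0599). The other 9 CHLA10 genes were not called, MYL9 among them having no count to test.

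SRF and its cofactors, which regulate many contractile genes, gave 4 tested genes of 4. In A673 3 of them were higher at 3 days (15.3% of all genes tested) and 1 at 20 days (19.7%), 1 was higher in TC32 (22.3%), and in CHLA10 MYOCD was lower at 20 days (17.2%) and SRF at 3 days (15.7%). SRF itself lay between 59.3 and 121 CPM in every library. It was called higher in A673 at 3 days (log2 0.38 ± 0.11) and lower in CHLA10 at 3 days (-0.32 ± 0.12), and was not called in TC32 or at 20 days. MRTFA was higher in A673 at 20 days (0.74 ± 0.099) and at 3 days (0.73 ± 0.099), and was not called in TC32 (0.13 ± 0.098) or in CHLA10. MRTFB was higher in TC32 (0.83 ± 0.22, edgeR adjusted p = 0.00293). MYOCD, the muscle-restricted cofactor, had at most 111 counts in a library. It was lower in CHLA10 at 20 days (-1.89 ± 0.59, edgeR adjusted p = 0.0144), with 0.622 to 1.35 CPM under BMS-986158 and 1.32 to 6.32 CPM under DMSO. These groups overlapped, the DMSO libraries spread widely, and the call was not tried with a library left out. MYOCD was called higher in A673 at 3 days (2.75 ± 0.91). That call, 1 of the 3 there, rests on few counts, at 0.199 to 0.739 CPM under BMS-986158 and 0.0377 to 0.0832 CPM under DMSO. Neither MRTFA nor MRTFB was called lower in TC32 or CHLA10.

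Of 17 other smooth muscle differentiation genes 16 were tested. In A673 at 20 days 8 were higher and 0 lower by edgeR (1 lower at an unadjusted p under 0.05), with a median log2 change of 0.39. Of all genes tested 19.7% were higher there. In the other comparisons there were 2 higher and 5 lower in TC32 (median -0.74), 3 and 4 in A673 at 3 days (-0.26), 3 and 5 in CHLA10 at 20 days (-0.49), and 1 and 4 in CHLA10 at 3 days (-0.52). The counts in A673 at 3 days lay near the shares over all genes, which were 15.3% higher and 18.4% lower. JPH2, a junctional membrane protein of muscle, was lower in TC32 (log2 -3.76 ± 0.9), A673 at 3 days (-2.2 ± 0.66) and CHLA10 at 20 and 3 days (-2.91 ± 0.71 and -4.23 ± 0.84). MYH11, the smooth muscle myosin heavy chain and the marker most restricted to that tissue, had at most 34 counts in any library and was called in none of the 5 comparisons. PLN, phospholamban, had at most 54 counts.

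The paralogues of the 10 genes, which include the cytoplasmic actins and MYL6 but also striated muscle actins and kinases, gave 14 tested genes of 16. In TC32 7 were lower and 0 higher (median log2 -0.62) by edgeR, in A673 at 20 days 6 were higher and 0 lower (0.24), and in A673 at 3 days 2 were higher and 0 lower (0.21), where 22.8% of all genes tested were lower in TC32 and 19.7% and 15.3% were higher in A673. At an unadjusted p under 0.05 those counts of 0 were 0, 2 and 1. In CHLA10 1 was lower at 20 days (0.01) and 2 at 3 days (-0.51). MYL6, the essential light chain of smooth and non-muscle myosin, was lower in TC32 (-1.11 ± 0.16) and higher in A673 at 20 and 3 days (0.85 ± 0.16 and 0.67 ± 0.16). TPM4, a cytoplasmic tropomyosin, was lower in TC32 (-0.9 ± 0.19) and in CHLA10 at 20 and 3 days (-0.55 ± 0.19 and -0.99 ± 0.19).

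For the remaining lists the shares over all genes are 22.3% higher and 22.8% lower in TC32, 19.7% and 19.9% in A673 at 20 days, 15.3% and 18.4% in A673 at 3 days, 16.5% and 17.2% in CHLA10 at 20 days, and 14% and 15.7% in CHLA10 at 3 days. Non-muscle myosin and its regulators (14 tested of 14) were 4 higher and 3 lower in TC32, 7 and 3 in A673 at 20 days, 2 and 1 in A673 at 3 days, 5 and 0 in CHLA10 at 20 days, and 4 and 0 in CHLA10 at 3 days. RHOB, a small GTPase, was higher in A673 at 20 days (log2 1.67 ± 0.27) and in CHLA10 at 20 and 3 days (1.33 ± 0.26 and 1.2 ± 0.26). Actin crosslinkers and focal adhesion linkers (12 of 12) were 7 higher and 1 lower in A673 at 20 days, 3 and 2 in A673 at 3 days, 1 and 3 in TC32, 1 and 1 in CHLA10 at 20 days, and 1 and 2 in CHLA10 at 3 days. FHL2, a LIM protein that binds SRF, was lower in all 5 comparisons (between -2.58 ± 0.25 in A673 at 20 days and -1.02 ± 0.22 in CHLA10 at 20 days).

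**Figure D5:**
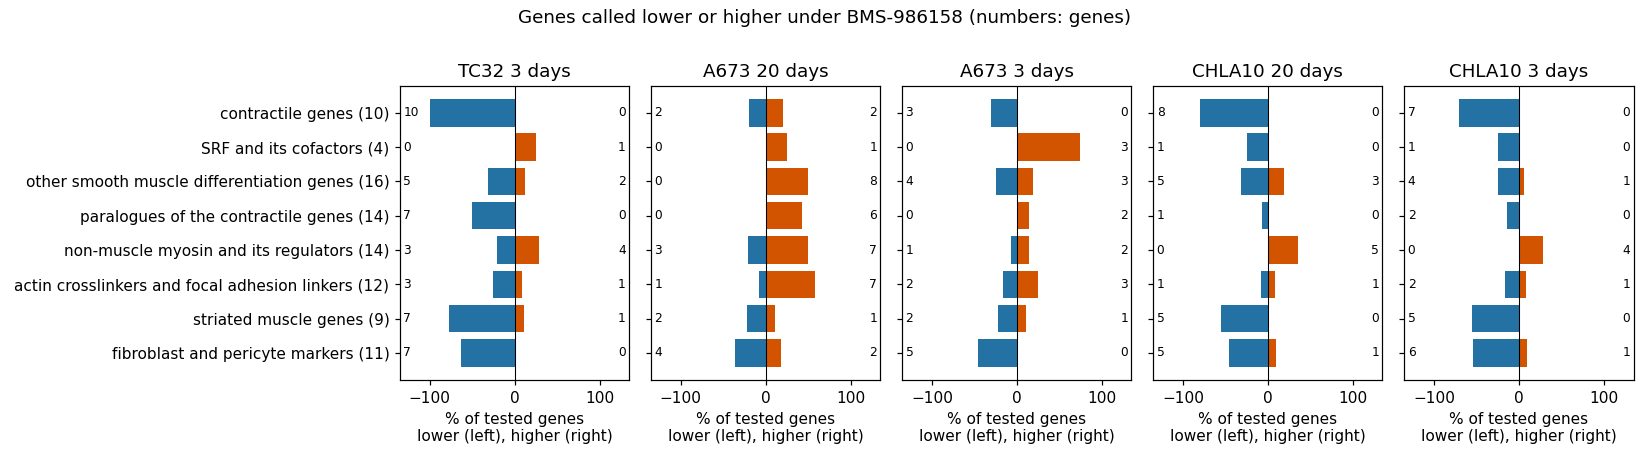
Share of tested genes of each list that were called lower (blue, to the left) or higher (orange, to the right) under BMS-986158 in the 5 comparisons, with the number of genes printed at each side and the number tested in brackets. The contractile genes reach 10 of 10 lower in TC32, and in A673 at 20 days 8 of 16 other smooth muscle differentiation genes are higher.

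Markers of other cell types were read in the same libraries. Of 10 Ewing sarcoma markers all were tested and none was higher by edgeR (at an unadjusted p under 0.05, 1 in CHLA10 at 20 days), while 5 were lower in TC32, 7 in A673 at 20 days, 3 in A673 at 3 days, 7 in CHLA10 at 20 days and 4 in CHLA10 at 3 days. Their summed level was 3240 to 3730 CPM with BMS-986158 and 5060 to 5590 CPM with DMSO in TC32, and 869 to 1080 CPM and 1530 to 1650 CPM in A673 at 20 days. NKX2-2 was at most 1.98 CPM in CHLA10 and the other defining genes were present in that line, CD99 reaching 1910 CPM. Fibroblast and pericyte markers (11 tested of 11) were 0 higher and 7 lower in TC32, 2 and 4 in A673 at 20 days, 0 and 5 in A673 at 3 days, 1 and 5 in CHLA10 at 20 days, and 1 and 6 in CHLA10 at 3 days. Their summed level was 441 to 488 CPM with BMS-986158 and 709 to 785 CPM with DMSO in TC32, and 578 to 676 CPM and 714 to 752 CPM in CHLA10 at 3 days. At 20 days it was 1070 to 2540 CPM with BMS-986158 and 860 to 1020 CPM with DMSO in A673, and 643 to 806 CPM and 799 to 1070 CPM in CHLA10. At 3 days in A673 it was 578 to 611 CPM and 828 to 1050 CPM. Nearly all of the sum came from THY1 (38.5 to 699 CPM over all libraries), COL1A2 (0.491 to 1650 CPM), COL1A1 (1.82 to 628 CPM), NOTCH3 (31.5 to 259 CPM) and PDGFRB (16.9 to 274 CPM), of which COL1A2 (log2 2.97 ± 0.41) and PDGFRB (1.01 ± 0.14) were higher in A673 at 20 days. The other 6 markers each stayed at or under the 36.7 CPM that RGS5 reached, with PDGFRA at or under 1.46 CPM and DCN at or under 9.52 CPM, and DCN was at 0 in all BMS-986158 libraries of TC32 and A673. The part of these markers in the changes of the contractile genes was not tested. Of 9 epithelial, blood and endothelial markers 5 were tested, with 0 higher and 2 lower in TC32, 1 and 2 in A673 at 20 days, 0 and 4 in A673 at 3 days, and 0 and 2 in CHLA10 at 20 and at 3 days. CD3E was at 0 in every library, and the keratin KRT18 reached 626 CPM in A673. The summed level of that list was 120 to 649 CPM with BMS-986158 and 127 to 157 CPM with DMSO in A673 at 20 days, and at most 11.3 CPM in any TC32 or CHLA10 library.

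The genes whose 5 log2 changes lay nearest to those of ACTA2 and TAGLN were sought among 10571 genes with a mean log2 CPM of at least 2, by the root mean square difference over the 5 comparisons. For TAGLN they were LYN (0.23), PARP14 (0.5), MYEOV (0.52), CERCAM (0.67) and TMC6 (0.67). LYN, a SRC-family tyrosine kinase, had log2 changes of -2.65 in TC32, 0.34 in A673 at 20 days, -0.88 in A673 at 3 days, -2.62 in CHLA10 at 20 days and -3.03 in CHLA10 at 3 days. For ACTA2 they were DUSP4 (0.77), S100A11 (0.88), DLGAP1 (0.93), LYN (0.95) and MYEOV (0.95). DUSP4, a phosphatase of MAP kinases, had -2.76 in TC32, -0.29 in A673 at 20 days, 0.11 in A673 at 3 days, -3.68 in CHLA10 at 20 days and -3.07 in CHLA10 at 3 days. The 10 contractile genes themselves were not among the candidates.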

How the data were processed

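RNA was sequenced from 30 libraries as paired reads of 150 bases, per the labels' protocols. The authors deposited raw counts per gene for 33538 Ensembl genes, of which 7105 were at 0 in every library and 33113 were paired with a symbol. The submitters' processing notes name FastQC, Trim Galore, STAR, DESeq2 and the build GRCh38 (hg38). Which tool counted the reads, with which annotation and whether by strand, is not stated in these sources, and gene positions and lengths come from GENCODE 29. Samples were grouped by line, treatment and day from the labels. No 2 libraries of a group agreed within sampling noise (chi-square per gene of at least 2.19).

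All 30 libraries were fitted together with edgeR 4.0.16 (R 4.3.3) by the quasi-likelihood test, after its filter on low counts (16713 genes kept), TMM scaling and Benjamini-Hochberg adjustment over all genes tested. CPM are counts over the scaled library size, a standard error is the log2 change over the square root of F, and the floor for a group without counts is 3 counts over the group. The procedure was tested on simulated data. Alternatives were RLE, upper-quartile and no scaling factors, scaling without the 50 most abundant genes, DESeq2 1.42.0, limma-voom (limma 3.58.1), other filters, other thresholds, the lines of a contrast only, a replicate block, and each library left out. Pairing by replicate number was checked by the correlation of same-numbered libraries' deviations from their group means: all were above 0.1 in CHLA10 at 20 days (0.2, 0.15 and 0.36) and not in the other 4 combinations of line and day.

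The members and the 9 lists were chosen with earlier results of these data known. Besides the 10 genes, the text names SRF, MRTFA, MRTFB, MYOCD and MYH11, up to 4 genes per list with the largest mean absolute change among those called, and the 5 genes nearest to ACTA2 and to TAGLN. KRT18, CD3E, PDGFRA, COL1A1, COL1A2, THY1, NOTCH3, PDGFRB and markers given for their level only were named after their values were seen. Some genes of the lists are not reported by name here.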

Additional observations from a re-analysis of the deposited data

Results flagged for a closer look

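The values below are differences between 2 responses to BMS-986158 (log2, first minus second) whose own test was called by edgeR. The comparisons share libraries.

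In A673, the response at 20 days exceeded that at 3 days by 4.72 for CNN1, 2.25 for TPM1 and 1.72 for CALD1. CNN1 rests on at most 35 counts in any library of these groups.

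At 20 days the response in A673 exceeded that in CHLA10 by 3.98 for ACTA2, 2.52 for TAGLN, 1.46 for CNN2, 4.27 for TPM1, 1.65 for MYLK and 2.55 for CALD1. At 3 days it exceeded that in CHLA10 by 4.29 for ACTA2, 2.7 for TAGLN, 1.58 for CNN2 and 2.17 for TPM1, and the difference for CNN1 was -3.31.

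The response in TC32 minus that in A673 at 3 days was -3.22 for ACTA2, -2.07 for TAGLN, -1.18 for CNN2, -2.45 for TPM1 and -1.3 for MYLK. The response in TC32 minus that in CHLA10 at 3 days was 2 for ACTG2 and -3.45 for CNN1.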

How the results depend on the processing

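No value changed direction while called. The counts of genes called under BMS-986158 stayed within 1.5 times under every alternative, except the genes higher in A673 at 3 days, 0 by edgeR, of which there were 1 (TPM1) with a replicate block and 2 (CNN2 and TPM1) without the 4 libraries farthest from their groups, an alternative chosen after seeing the data. With the block, where the numbers are not shown to pair the A673 libraries, 4 genes were lower there, against 3. Leaving out each library gave 9 to 10 lower genes in TC32, 2 to 2 lower and 2 to 2 higher in A673 at 20 days, 3 to 3 lower and 0 to 0 higher in A673 at 3 days, 6 to 8 lower in CHLA10 at 20 days and 7 to 7 at 3 days. Of the differences between 20 and 3 days, CHLA10 had 0, 1 (TAGLN) with the replicate block, 4 without the 4 libraries and 0 to 2 with a library left out, and A673 had 3, 1 at an adjusted p under 0.01, 5 without the 4 libraries and 1 to 4 with a library left out. TC32 against CHLA10 had 2, falling to 1 with DESeq2, with no filter and with those lines only, to 0 at 0.01, to 0 to 1 with a library left out, and reaching 6 without the 4 libraries. A673 against CHLA10 at 3 days had 5, 2 at 0.01 and 4 to 5 with a library left out, against 6 to 6 at 20 days, and TC32 against A673 had 4 to 6. Of the DMSO comparisons, 20 against 3 days gave 1 in CHLA10, 0 with an absolute log2 change of at least 1 and 0 to 1 with a library left out. In A673 it gave 0, 1 with DESeq2, 4 without the 4 libraries and 0 to 2 with a library left out. Between lines the left-out libraries gave 7 to 8 (TC32 against A673), 6 to 6 (TC32 against CHLA10) and 6 to 7 (A673 against CHLA10). The causes were not tested, except that fewer libraries or genes enter some fits. Among the treatment comparisons and their differences, where the replicate block was fitted, it changed no other call of the 10 genes than TAGLN and TPM1; the DMSO comparisons were not fitted with it, since they compare different lines or days. Depth limits CNN1, and ACTG2 and MYL9 in A673.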

Other observations

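Many striated muscle genes were also lower in TC32 and CHLA10. Of 15 such genes 9 were tested, and 7 were lower and 1 higher in TC32, 2 and 1 in A673 at 20 days, 2 and 1 in A673 at 3 days, and 5 and 0 in CHLA10 at both times (edgeR; in CHLA10 0 were higher at an unadjusted p under 0.05 too). Of all genes tested, 22.8% were lower in TC32, 19.9% in A673 at 20 days, 18.4% in A673 at 3 days, 17.2% in CHLA10 at 20 days and 15.7% in CHLA10 at 3 days. MYOM2, a protein of the sarcomeric M band, was lower in all 5 comparisons, with log2 changes between -4.86 ± 0.31 in CHLA10 at 20 days and -2.1 ± 0.28 in TC32. In A673 at 20 days MYOM2 had 1.06 to 3.11 CPM with BMS-986158 and 37.2 to 38.7 CPM with DMSO. TNNT1, the slow skeletal troponin T, was lower in all 5 as well, with 8.9 to 18.1 CPM with BMS-986158 and 82.3 to 98.6 CPM with DMSO in TC32 (-2.89 ± 0.33). NEB, nebulin, the ruler of the thin filament, fell in TC32 (-2.6 ± 0.49) and in CHLA10 at 20 and 3 days (-3.59 ± 0.39 and -4.01 ± 0.41), and was not called in A673.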
